A study of Mus musculus with 15 samples.

Results

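Fcgbp, Gdpd2 and Ankrd35 are 3 mouse genes whose levels overlapped the control range after 6 days of vismodegib and were higher on average after 14 days in tumour cells of basal cell carcinoma. They were matched by Entrez identifier (215384 for Fcgbp, 71584 for Gdpd2 and 213121 for Ankrd35) among the 36528 genes counted, and all 3 passed the filter on low counts that left 18751 genes for testing. They were picked because of their levels at 14 days, at 6 days and in control in these same libraries, so those levels and the fold changes between those groups are given as a description, with no test.

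The tumours were skin basal cell carcinomas of mice that carried K14Cre-ER, floxed Ptch1 (Ptch1fl/fl), floxed p53 (p53fl/fl) and Lgr5GFP, in the controls as in both treated groups. In these mice the keratin 14 promoter, active in basal keratinocytes, drives an inducible Cre that deletes Ptch1 and p53. Tumour cells were sorted and their polyadenylated RNA was sequenced in 4 control libraries, from untreated mice per the series' design, 8 libraries from mice given vismodegib for 6 days and 3 from mice given it for 14 days. The control titles also carry the code MCT, which the labels do not explain. The labels give no age, dose, sort gate or tally of animals, so a p-value here rests on how the libraries vary, which may be technical variation.

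Loss of Ptch1, the Hedgehog receptor, frees the membrane protein Smoothened and switches on GLI transcription factors, the driver of basal cell carcinoma. Vismodegib is a Smoothened inhibitor. Fcgbp encodes a large secreted protein built of repeated von Willebrand factor type D domains, named in human for binding the Fc part of IgG and best known from the mucus made by intestinal goblet cells. Gdpd2, also called GDE3, encodes a membrane enzyme with its catalytic domain outside the cell that cleaves glycerophosphoinositol, first described in mouse osteoblasts. It can also release the urokinase receptor, the product of Plaur, from its lipid anchor. Ankrd35 encodes an ankyrin repeat protein whose function is poorly known.

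Total counts ran from 27336935 to 256569828 per library. The submitters' sample identifiers fell into 3 ranges, called A, B and C here. Range A held controls 1, 2 and 3 with 6-day libraries 1, 3, 4, 6 and 8, range B held control 4 with 6-day libraries 2, 5 and 7, and range C held the 3 libraries at 14 days. The labels do not say what the ranges stand for, and range C and 14 days of treatment cannot be told apart. Xist exceeded Ddx3y, which marks female cells, in 2 of 4 controls, 4 of 8 libraries at 6 days and 3 of 3 at 14 days, so the 14-day group had no male library. Levels are in CPM (counts scaled to a common library total, with TMM factors) unless said otherwise. In sorted cells summed into 1 library, more cells with a transcript and more transcript per cell cannot be told apart. The sorted cells carried keratinocyte RNA in every library. The 6 basal keratinocyte markers summed to 10664 to 18435 CPM in control, 15841 to 28217 CPM at 6 days and 18095 to 34761 CPM at 14 days, against at most 21.7 CPM for 7 fibroblast markers.

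The genes lie on different chromosomes. In the RefSeq annotation of GRCm38.p6, Fcgbp spans chr7:28071236-28120864, Gdpd2 chrX:100729836-100738901 and Ankrd35 chr3:96670131-96691034, all on the plus strand, and no other counted gene overlaps any of them. The 250 bases before an annotated transcript start are given for each gene, since the 3 genes were chosen for moving together and a shared letter pattern can be looked for there. Sequences are from RefSeq, 5′ to 3′ on the plus strand, and capitals mark matches to the motifs searched. The Fcgbp window is chr7:28070986-28071235, the Gdpd2 window chrX:100729597-100729846 and the Ankrd35 window chr3:96669881-96670130.
Fcgbp: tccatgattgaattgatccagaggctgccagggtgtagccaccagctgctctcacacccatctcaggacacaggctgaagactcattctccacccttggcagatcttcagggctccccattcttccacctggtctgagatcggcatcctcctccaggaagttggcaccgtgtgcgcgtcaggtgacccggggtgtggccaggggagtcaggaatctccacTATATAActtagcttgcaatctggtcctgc
Gdpd2: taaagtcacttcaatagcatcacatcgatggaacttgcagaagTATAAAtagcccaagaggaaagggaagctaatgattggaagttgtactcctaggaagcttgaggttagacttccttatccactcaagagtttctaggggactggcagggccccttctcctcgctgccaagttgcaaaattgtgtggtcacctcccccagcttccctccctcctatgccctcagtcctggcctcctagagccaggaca
Ankrd35: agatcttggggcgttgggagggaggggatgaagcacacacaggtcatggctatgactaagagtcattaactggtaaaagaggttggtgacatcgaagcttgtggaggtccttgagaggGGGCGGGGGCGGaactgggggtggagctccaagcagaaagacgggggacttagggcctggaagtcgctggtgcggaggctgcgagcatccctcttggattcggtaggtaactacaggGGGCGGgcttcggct

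The searched motifs, on both strands, were TATAAA and TATATAA (forms of the TATA box), TGANTCA (AP-1), GACCACCCA (GLI), GGAATG (TEAD), AACCNGTT (grainyhead-like), ATGCAAAT (octamer) and GGGCGG (GC box). TATATAA was added after the sequences had been read. In Fcgbp the only match was TATATAA, 30 to 24 bases before the start, a pattern found in 3.04% of 32851 RefSeq windows of the same length. In Gdpd2 the only match was TATAAA, 207 to 202 bases before the start, found in 12.4% of windows. In Ankrd35 GGGCGG occurred 3 times, at 132 to 127, 126 to 121 and 15 to 10 bases before the start, and 32.7% of windows held it at least once. No motif was shared by 2 of the 3 windows. RefSeq has a second Gdpd2 start, whose window, chrX:100729936-100730185, held none of the motifs. AP-1 letters occur in 6.75% of windows, GLI letters in 0.225%, TEAD letters in 12.6%, grainyhead-like letters in 1.79% and octamer letters in 1.60%, and none occurred in these 3. GC content was 56.4% for Fcgbp, 50% for Gdpd2 and 58.8% for Ankrd35, beside a median of 52.4% over all windows. A match of letters does not show binding, and its lack says nothing about the factor.

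Fcgbp was the most abundant of the 3 genes. It had 159.0, 13.8, 31.7 and 38.6 CPM in controls 1 to 4, 98.5, 189, 76.5, 93.7, 124, 187, 241 and 77.7 CPM in 6-day libraries 1 to 8, and 4066, 309 and 822 CPM in 14-day libraries 1 to 3. Every library at 14 days was above every library at 6 days and every control, although the lowest of them was only 1.28 times the highest at 6 days. The 6-day and control groups overlapped, with 3 of 8 libraries at 6 days above all controls. Full separation of this kind was seen for 11.7% of tested genes between 14 days and control, for 5.42% between 14 and 6 days and for 1.22% between 6 days and control, and nothing is read from it here because the choice of genes used these contrasts.

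The mean Fcgbp level was 60.8 ± 66.3 CPM in control (SD, n = 4), 136 ± 61.8 CPM at 6 days (SD, n = 8) and 1732 ± 2038 CPM at 14 days (SD, n = 3). The SD at 14 days exceeded the mean. In the edgeR fit over all 15 libraries the log2 fold change was 4.83 (SE 0.89) for 14 days against control, 3.67 (SE 0.66) for 14 against 6 days and 1.16 (SE 0.68) for 6 days against control, that is 28.5-fold, 12.7-fold and 2.24-fold. One library weighed heavily on these values. Without 14-day library 1 the first became 9.37-fold and the second 4.18-fold, and without control 1 the first became 62.3-fold and the third 4.72-fold. By RPKM, in which counts are divided by transcript length, Fcgbp was the gene with rank 39 from the top in 14-day library 1, rank 442 in library 3 and rank 1949 in library 2, and in controls its rank lay between 4270 and 12114.

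**Figure D1:**
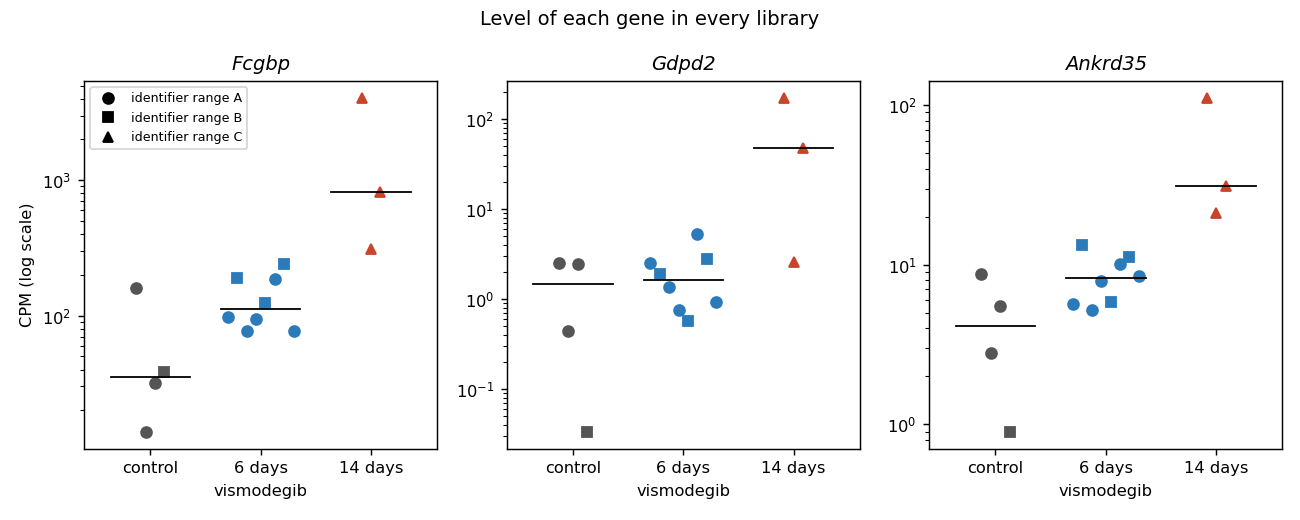
Level of Fcgbp, Gdpd2 and Ankrd35 in CPM on a log scale in each of 4 control, 8 6-day and 3 14-day libraries. Each point is a library, its shape gives the range of submitter identifiers, and the bar is the group median; the 14-day points are above all others for Fcgbp and Ankrd35, while 14-day library 2 of Gdpd2, at 2.61 CPM, lies among the 6-day libraries.

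Gdpd2 was scarce in control and at 6 days. It had 2.55, 0.446, 2.47 and 0.0336 CPM in controls 1 to 4, 2.54, 1.88, 1.36, 0.757, 0.569, 5.25, 2.82 and 0.940 CPM in 6-day libraries 1 to 8, and 172, 2.61 and 47.0 CPM in 14-day libraries 1 to 3. In control 4 the level rested on 3 counts, with a Poisson 95% interval of 0.00692 to 0.0981 CPM that covers counting error only. The 14-day group split. Libraries 1 and 3 were above every other library, whereas library 2 was 1.02 times the highest control and 0.496 times the highest library at 6 days, so Gdpd2 was above all 6-day libraries in 2 of 3 libraries only. At 6 days 2 of 8 libraries were above all controls.

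The mean Gdpd2 level was 1.37 ± 1.32 CPM in control (SD, n = 4), 2.02 ± 1.54 CPM at 6 days (SD, n = 8) and 73.8 ± 87.7 CPM at 14 days (SD, n = 3). The log2 fold change was 5.77 (SE 1.32) for 14 days against control, 5.20 (SE 0.97) for 14 against 6 days and 0.56 (SE 0.96) for 6 days against control. The first 2 correspond to 54.4-fold and 36.8-fold, and without 14-day library 1 they were 18.4-fold and 12.4-fold. At 6 days the difference from control was smaller than its SE.

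Ankrd35 had the smallest range of the 3. It had 8.75, 2.79, 5.50 and 0.895 CPM in controls 1 to 4, 5.72, 13.2, 5.22, 7.95, 5.87, 10.2, 11.2 and 8.52 CPM in 6-day libraries 1 to 8, and 111, 21.1 and 30.9 CPM in 14-day libraries 1 to 3. The 14-day libraries were all above the 6-day and control libraries, and the lowest of them was 1.59 times the highest at 6 days. At 6 days 3 of 8 libraries were above all controls.

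The mean Ankrd35 level was 4.49 ± 3.42 CPM in control (SD, n = 4), 8.48 ± 2.88 CPM at 6 days (SD, n = 8) and 54.5 ± 49.5 CPM at 14 days (SD, n = 3). The log2 fold change was 3.61 (SE 0.68) for 14 days against control, 2.68 (SE 0.52) for 14 against 6 days and 0.92 (SE 0.54) for 6 days against control, that is 12.2-fold, 6.42-fold and 1.90-fold. Without 14-day library 1 the first became 5.86-fold and the second 3.09-fold. For each of the 3 genes the groups had the order control, 6 days, 14 days by mean, and the neighbours control and 6 days overlapped in range.

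**Figure D2:**
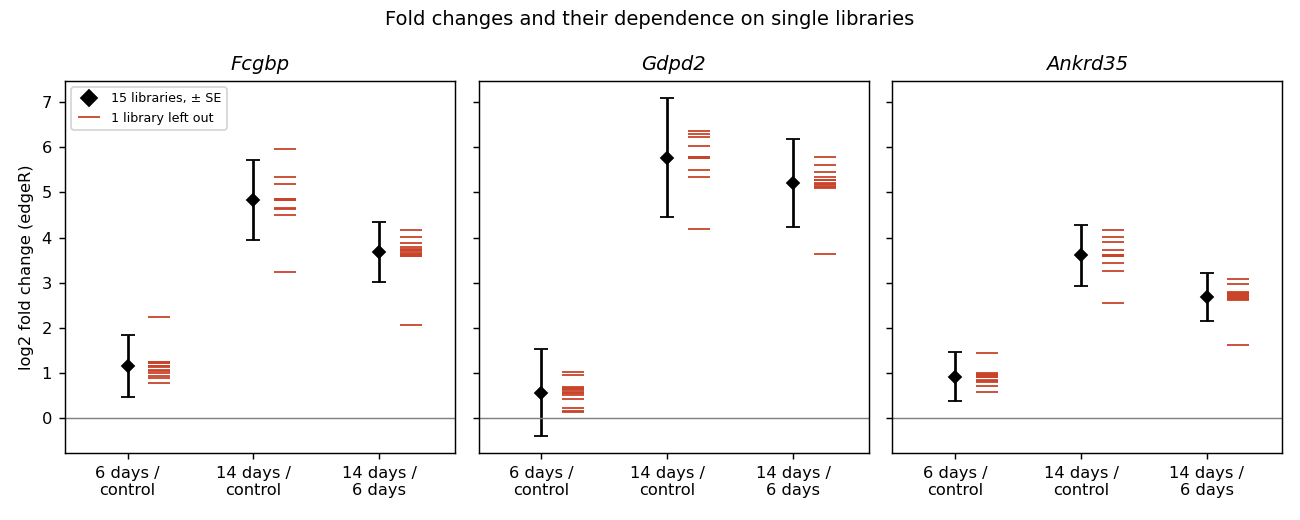
Log2 fold changes of the 3 genes for 6 days over control, 14 days over control and 14 over 6 days. Diamonds with bars give the fit over 15 libraries ± SE, and the short red lines the 15 fits that left out 1 library each; for 14 days the lowest line of each gene is the fit without 14-day library 1, at 3.23 for Fcgbp, 4.20 for Gdpd2 and 2.55 for Ankrd35 against control.

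The 3 genes ranked the 14-day libraries alike, with library 1 highest, library 3 next and library 2 lowest. Library 1 exceeded library 2 by 13.2 times for Fcgbp, 65.9 times for Gdpd2 and 5.27 times for Ankrd35. Of all tested genes, 28.4% had this order, so the order alone is common. Library 1 held 78.2% of the summed 14-day level of Fcgbp, 77.6% of that of Gdpd2 and 68.1% of that of Ankrd35.

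Per length, on the RPKM scale, the level of Fcgbp was the highest of the 3 in 15 of 15 libraries. It was 6.25 to 42.4 times the Gdpd2 level at 14 days, and 4.60 to 412 times in control, where the upper end is control 4 with its 3 Gdpd2 counts. The order of the other two changed. Ankrd35 was above Gdpd2 in all libraries except 14-day 1 and 14-day 3, in which the Ankrd35 level was 0.439 and 0.445 times the Gdpd2 level.

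Within the 6-day group the 2 identifier ranges were compared, a contrast that the choice of genes did not use. Range B exceeded range A by 0.83 on the log2 scale for Fcgbp, and the 3 range B libraries had 124 to 241 CPM against 76.5 to 187 CPM in the 5 of range A (two-sided exact permutation p = 0.0714, 0.214 after Benjamini-Hochberg adjustment over the 3 genes). For Ankrd35 the difference was 0.39 (exact p = 0.321, adjusted 0.482) and for Gdpd2 it was -0.20 (exact p = 0.857, adjusted 0.857). With 3 against 5 libraries the smallest p the test allows is 0.0357, and no difference passed the threshold. After adjustment only all 3 genes at that p could pass, so a difference in a single gene could not be called.

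Within range A the 6-day minus control difference was 1.29 on the log2 scale for Fcgbp, 0.23 for Gdpd2 and 0.51 for Ankrd35. Within range B, with control 4 as the only control, it was 2.21 for Fcgbp and 3.38 for Ankrd35, and for Gdpd2 the 3 libraries at 6 days had 0.569 to 2.82 CPM against the 0.0336 CPM of control 4. Both ranges thus had higher mean log2 levels at 6 days than in control for all 3 genes, by different amounts.

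By median, library sex went with the levels in opposite ways in the 2 groups that held both. At 6 days the 4 libraries with Xist above Ddx3y had medians of 132 CPM for Fcgbp, 2.09 CPM for Gdpd2 and 9.34 CPM for Ankrd35, against 111, 1.32 and 6.91 CPM in the other 4, with overlapping ranges for each gene. Among controls the 2 libraries with Xist above Ddx3y were the lower ones for Gdpd2 (0.0336 and 0.446 CPM, against 2.47 and 2.55 CPM) and Ankrd35 (0.895 and 2.79 CPM, against 5.50 and 8.75 CPM). For Fcgbp the controls overlapped, with 13.8 and 38.6 CPM against 31.7 and 159.0 CPM. Each side held 2 controls, and control 4, of range B, was among those with Xist above Ddx3y. The differences by library sex were not tested.

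The genes were next set beside markers of differentiating epidermis, the keratinocyte layers that leave the basal state, since the 14-day libraries differed widely in these. The summed level of 12 such markers (Krt1, Krt10, Krtdap, Lor, Flg, Ivl, Sbsn, Calml3, Dsg1a, Dsc1, Klk7 and Tgm3) was 7390, 541 and 2422 CPM in 14-day libraries 1 to 3, against 2206, 629, 634 and 824 CPM in controls 1 to 4. At 6 days it ran from 661 to 1772 CPM, with a median of 930 CPM. The 14-day libraries thus had the same order in the marker sum as in the 3 genes, and 8 of the 12 markers showed it singly. In 14-day library 2 the sum was below that of every control, while Fcgbp and Ankrd35 were there 1.94 and 2.41 times their highest control. Of the 12 markers, Krt10, a keratin of the first suprabasal layer, passed the test at 14 days against control (log2 2.55, adjusted p = 0.0452, edgeR's quasi-likelihood test), and Krt10 (2.45, adjusted p = 0.0332) and the desmosomal cadherin gene Dsg1a (1.52, adjusted p = 0.0185) passed at 14 against 6 days. Over all tested genes 3.25% and 2.14% were called higher in these 2 comparisons. Without 14-day library 1 these adjusted p-values were 0.344, 0.476 and 0.302, and each fold was lower by more than 1.5 times. The calls held in 4, 8 and 13 of 15 fits that left out 1 library, and all 3 were lost with library sex in the fit (0.0729, 0.0697 and 0.0658). That of Krt10 against control was also lost with only the 2 groups compared (0.142) and without range B (0.0805). What the marker level adds to the level of the 3 genes was not tested at 14 days.

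Over the 8 libraries at 6 days, which do not include 14-day library 1, the log2 level of Fcgbp went with the log2 marker sum. Pearson's r was 0.874 (two-sided exact permutation p = 0.00481, adjusted 0.0144 over the 3 genes) and Spearman's rho 0.857 (exact permutation p = 0.0107, adjusted 0.0321). Without the 2 libraries farthest from the median of the marker sum r was 0.751. For Ankrd35 r was 0.751 (exact permutation p = 0.0313, adjusted 0.0469) and rho 0.786 (exact permutation p = 0.0279, adjusted 0.0419), with r = 0.694 without the 2 farthest. For Gdpd2 r was 0.354 (exact permutation p = 0.389, adjusted 0.389) and rho 0.310 (exact permutation p = 0.462). This relation was looked at after the 14-day order had been seen. Ranges A and B hold 5 and 3 of these libraries, too few for an r of their own. On deviations from the 2 range means r was 0.786 for Fcgbp (exact permutation within ranges, p = 0.0236, adjusted 0.0708), 0.696 for Ankrd35 (exact p = 0.114, adjusted 0.171) and 0.537 for Gdpd2 (exact p = 0.218, adjusted 0.218), so no adjusted value passed the threshold within ranges. Without 6-day library 7, the library with the highest marker sum, r was 0.802 for Fcgbp (exact permutation, adjusted p = 0.0833). The adjusted p of Ankrd35 passed 0.05 in 1 of the 8 fits that left out a library, the one without library 8 (r = 0.847, adjusted exact p = 0.0217).

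**Figure D3:**
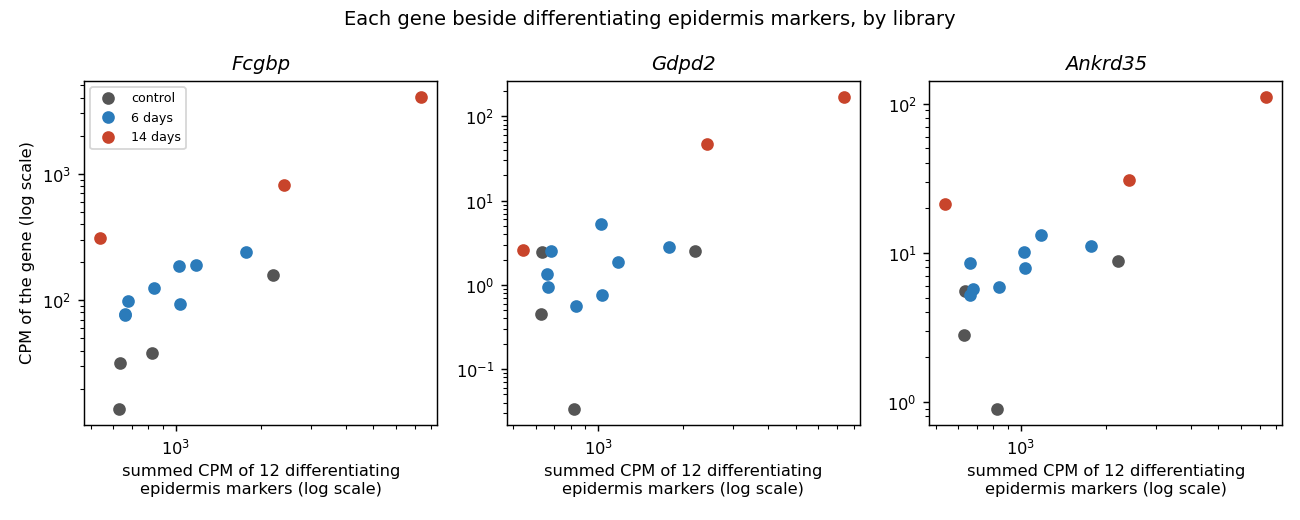
Level of each gene against the summed level of 12 differentiating epidermis markers, both in CPM on log scales, in each of 15 libraries coloured by group. Library 1 at 14 days is at the upper right in each panel (marker sum 7390 CPM), while 14-day library 2 has the lowest marker sum of all (541 CPM) yet lies above every control for Fcgbp and Ankrd35.

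Between the genes themselves the 8 libraries at 6 days gave r = 0.744 for Fcgbp with Ankrd35 (exact permutation p = 0.0434, adjusted 0.130 over 3 pairs; rho 0.762, adjusted 0.110), r = 0.589 for Fcgbp with Gdpd2 (exact permutation p = 0.126, adjusted 0.189) and r = 0.426 for Gdpd2 with Ankrd35 (exact permutation p = 0.285, adjusted 0.285). No pair passed after adjustment. Without the 2 farthest libraries r was 0.488, 0.555 and 0.166 for the same pairs. On deviations from the range means r was 0.887 for Fcgbp with Gdpd2 (exact permutation within ranges, adjusted p = 0.0458), which then passed, 0.695 for Fcgbp with Ankrd35 (adjusted exact p = 0.133) and 0.513 for Gdpd2 with Ankrd35 (adjusted exact p = 0.238).

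Other cell types were looked for through their markers. The 10 myeloid markers summed to 41.3, 29.2 and 45.2 CPM in 14-day libraries 1 to 3, against 4.13 to 14.5 CPM in control and 2.32 to 10.04 CPM at 6 days. Of them 4 were higher at 14 days than in control and 5 higher than at 6 days, where 3.25% and 2.14% of all tested genes were called higher. Itgam, an integrin of macrophages and neutrophils, had 2.29 ± 0.594 CPM at 14 days against 0.00559 ± 0.0112 CPM in control (adjusted p = 0.00907, edgeR, under 0.05 without any single library), and the other 8 calls were lost without 14-day library 1 (0.0595 to 0.219). The myeloid sum was highest in library 3 and so did not share the order of the 3 genes. The 5 Langerhans and antigen-presenting markers did share it in their sum, with 94.2, 32.8 and 41.4 CPM in 14-day libraries 1 to 3, against 12.9 to 112 CPM in control, and 4 of the 5 had it singly. The part of either in the levels of the 3 genes was not tested. Basal, upper follicle and bulge markers gave 2 of 6, 1 of 8 and 2 of 7 calls higher at 14 days than in control, and none lower. Of these 5, only Itga6 held without each library in turn, and it was lost with only the 2 groups compared (0.0551). Col17a1 was lost without 14-day library 1 or 2 or control 3, Gata6 without any 14-day library or control 2, 3 or 4, and Krt15 and Nfatc1 without 14-day library 2 or 3 or control 2 or 3 (0.0535 to 0.0987). The 7 bulge markers had the reverse order, with 11242, 18373 and 15172 CPM in 14-day libraries 1 to 3. Endothelial markers summed to at most 5.75 CPM and lymphoid markers to at most 4.28 CPM in any library. The 10 sebocyte markers summed to 477, 250 and 316 CPM in 14-day libraries 1 to 3, against 234 to 515 CPM in control, and so also had the order 1, 3, 2, as did the basal sum.

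Since Fcgbp is best known from mucus, markers of mucous cells were read as well. The 6 markers Agr2, Tff3, Spdef, Muc5b, Zg16 and Clca1 summed to 14.4, 0.567 and 2.65 CPM in 14-day libraries 1 to 3, against at most 0.406 CPM in control and 0.553 CPM at 6 days. Most of it was Clca1, which encodes a secreted protease of goblet cells and had 14.4, 0.373 and 2.6 CPM in 14-day libraries 1 to 3 and no count in any of the 4 controls. Clca1 was called higher at 14 days against control (adjusted p = 0.0158, edgeR) and against 6 days (adjusted p = 0.0293), and the first call was lost without 14-day library 1 (adjusted p = 0.0722) and with only the 2 groups compared (0.0704). The second was lost without 14-day library 1 (0.370), 14-day library 3 (0.0764) or 6-day library 5 (0.0567) and with library sex in the fit (0.0681). Tff3, the trefoil peptide that goblet cells secrete in bulk, had 0 counts in every library. Among 17 mucous cell genes listed, 6 had enough counts to be tested, and Foxa3, Creb3l1, Bcas1, Fut2 and Muc1 did not pass in edgeR in any comparison. In DESeq2 0 of the 6 passed at 6 days against control, 3 at 14 days against control and 2 at 14 against 6 days. In edgeR 2, 3 and 2 had an unadjusted p under 0.05 in these comparisons. Over all tested genes edgeR called 1.26%, 6.6% and 3.89% there. Muc1 had 1.03 ± 0.310 CPM at 14 days, against 1.22 ± 0.826 CPM in control.

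Of 15 other genes with von Willebrand factor type D domains, the family of Fcgbp, 10 were tested. None passed at 6 days against control or at 14 against 6 days in edgeR, where 1.26% and 3.89% of all tested genes were called. In these 2 comparisons 1 and 2 had an unadjusted p under 0.05, and 0 and 2 passed in DESeq2. At 14 days against control 1 was lower, Kcp, a secreted regulator of BMP signalling, with 2.41 ± 0.374 CPM at 14 days against 17.1 ± 15.7 CPM in control (log2 -2.83, adjusted p = 0.0474), beside 3.35% of all tested genes called lower. That call held without control 1, 6-day library 4 or 6-day library 5 and was lost without any of the other 12 libraries, where its highest adjusted p was 0.155. It was also lost with library sex in the fit (0.0563), with no filter on low counts (0.0593), with only the 2 groups compared (0.0764) and without range B (0.0531). The median log2 difference of the 10 genes was -0.89 at 14 days against control, where that of all tested genes was -0.02. The nearest relative in the genome, 9530053A07Rik, starts 8602 bases after Fcgbp ends and had 0.282 CPM in control, 0.272 CPM at 6 days and 0.421 CPM at 14 days. Among 7 tested Fc receptor and IgG transport genes, Trim21, a cytosolic antibody receptor, was higher at 14 days than in control (34.6 ± 1.72 against 18.3 ± 5.49 CPM, log2 0.92, adjusted p = 0.0302), a call lost without any single 14-day library or without control 3 or 4 (0.0592 to 0.0988), with only the 2 groups compared (0.117) and without range B (0.0523).

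Of the glycerophosphodiesterase family of Gdpd2, 5 other members were tested, and none was higher in any comparison. Gdpd1, which acts on lysophospholipids, fell to 8.51 ± 2.90 CPM at 6 days (n = 8) and 9.07 ± 2.93 CPM at 14 days (n = 3), against 24.8 ± 2.64 CPM in control (n = 4). All 8 libraries at 6 days were below all 4 controls, a separation for which no share of all tested genes is given here. The log2 change was -1.54 at 6 days (adjusted p = 0.0108, edgeR), and the call held in 15 of 15 fits that left out a library. At 14 days it was -1.45 (adjusted p = 0.0229) and held in 10 of 15, being lost without any single 14-day library and without control 2 or 3 (0.0588 to 0.0968), and with only the 2 groups compared (0.0554). Gde1, Gdpd3, Gdpd5 and Gpcpd1 did not pass. Gpcpd1, which splits glycerophosphocholine, had 263, 56.2 and 46.6 CPM in 14-day libraries 1 to 3, against 22.8 to 108 CPM in control. At 6 days 0.773% of all tested genes were called lower, so 1 of 5 is given as a count and not as a property of the family.

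The wider list of phospholipid breakdown and choline or inositol recycling, the pathway in which glycerophosphodiesterases act, had 26 tested genes. It also held genes outside these reactions, among them Plaur, whose product Gdpd2 can release, and Slc37a2. Both are counted in the calls that follow, so those calls are not all of pathway enzymes. At 6 days 2 were lower and 0 higher, at 14 days against control 3 were higher and 2 lower, and at 14 against 6 days 3 were higher and 1 lower. Over all tested genes 0.485% were called higher and 0.773% lower at 6 days (1.26% in all), 3.25% higher and 3.35% lower at 14 days against control (6.6% in all), and 2.14% higher and 1.75% lower at 14 against 6 days (3.89% in all). Slc5a3, the sodium-coupled inositol transporter gene, had 24.6 ± 17.4 CPM at 6 days against 250 ± 165 CPM in control (log2 -3.35, adjusted p = 0.00498), a call held in 15 of 15 fits, and 25.2 ± 4.72 CPM at 14 days (log2 -3.31, adjusted p = 0.0134, lost without any single 14-day library, at 0.0511 to 0.0735). Plaur, the urokinase receptor gene, was lower at 14 days than in control (0.263 ± 0.0711 against 5.91 ± 3.28 CPM, log2 -4.48, adjusted p = 0.00917; 0.0531 without 14-day library 1) and at 6 days (0.867 ± 0.705 CPM, log2 -2.75, adjusted p = 0.030, lost without control 2, at 0.110, and without 6-day library 1, 2, 3, 5 or 8, at 0.0509 to 0.0621). Pla2g4f, a cytosolic phospholipase A2 gene, had 110, 1.34 and 22.4 CPM in 14-day libraries 1 to 3 against 0.446 to 1.0 CPM in control (log2 6.13, adjusted p = 0.00989; 0.0542 without 14-day library 1 and 0.0507 with only the 2 groups compared). Its 14-day libraries had the order 1, 3, 2 of Gdpd2. Pcyt1a, the rate-limiting enzyme of phosphatidylcholine synthesis, was 86.9 ± 6.42 CPM at 14 days against 54.7 ± 4.15 CPM in control (log2 0.67, adjusted p = 0.0162; 0.0807 without 14-day library 1, 0.0561 without control 2, 0.0641 without control 3 and 0.0774 with only the 2 groups compared). Against 6 days Chkb, a choline kinase gene, was lower (65.2 ± 17.2 against 134 ± 23.9 CPM, log2 -1.04, adjusted p = 0.0204), and Slc37a2, a sugar phosphate transporter gene, was higher (15.8 ± 14.3 against 2.92 ± 1.05 CPM, log2 2.43, adjusted p = 0.0225). Both calls were lost without 14-day library 1 (0.219 and 0.365) or 14-day library 3 (0.110 and 0.0654), and that of Slc37a2 with library sex in the fit (0.0549).

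Osteoblast genes, in whose cells Gdpd2 was first studied, gave no call. Of 10 listed, 5 were tested, Runx2, Alpl, Phex and Dlx5 among them, 0 passed in edgeR and 0 in DESeq2 in any of the 3 comparisons, and 1, 0 and 0 had an unadjusted p under 0.05 at 6 days, at 14 days and between them. Over all tested genes edgeR called 1.26% at 6 days against control, 6.6% at 14 days against control and 3.89% at 14 against 6 days. With 5 genes, 0 calls are near those shares and are given as a count only. Runx2, the osteoblast master regulator, had 13.3 ± 3.10 CPM at 14 days against 9.91 ± 8.13 CPM in control.

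Of 46 other Ankrd genes 34 were tested. At 6 days against control 0 passed in edgeR or DESeq2, with 3 at an unadjusted p under 0.05. Of all tested genes 1.26% were called there in edgeR. At 14 days 3 were higher than in control and 3 higher than at 6 days, and none was lower in either, beside 3.25% and 2.14% of all tested genes called higher. Ankrd50, which serves endosomal recycling, had 244 ± 45.7 CPM at 14 days, against 80.3 ± 30.8 CPM in control and 126 ± 21.8 CPM at 6 days. Its log2 difference from control was 1.60 (adjusted p = 0.00322, edgeR) and held in 15 of 15 fits that left out a library. That from 6 days was 0.95 (adjusted p = 0.0293) and was lost without any single 14-day library (0.0834 to 0.124) and with library sex in the fit (0.0697). Its highest library at 14 days was library 2, with 290 CPM, the one in which Ankrd35 was lowest. Ankrd27, a regulator of endosomal trafficking, was 122 ± 11.4 CPM at 14 days against 77.9 ± 4.41 CPM in control (log2 0.65, adjusted p = 0.0107; 0.0561 without 14-day library 1 and 0.0774 with only the 2 groups compared). Ankrd9 was called against control (log2 1.45, adjusted p = 0.0186; 0.0588 to 0.0882 without 14-day libraries 1 or 3 or control 3, and 0.0719 with only the 2 groups compared) and Ankrd13a against 6 days (log2 0.69, adjusted p = 0.0403). The Ankrd13a call held without 14-day library 2, 6-day library 3 or 8, or control 1 or 4, and was lost without any of the other 10 libraries, with library sex in the fit (0.0963), with no filter on low counts (0.0515) and without range B (0.0819). The median log2 difference of the 34 genes at 14 days against control was 0.14.

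Hedgehog pathway genes were read beside the 3 genes as a measure of the drug's effect. Ptch1, Hhip and Foxe1 were lower at 14 days than in control, with adjusted p-values of 0.0454, 0.0394 and 0.036 that became 0.182, 0.159 and 0.140 without 14-day library 1. They held in 4, 8 and 11 of 15 fits that left out 1 library. Ptch1 was also lost with no filter on low counts (0.0514), and Hhip with library sex in the fit (0.0559) and with only the 2 groups compared (0.099). Hhip, a decoy receptor for Hedgehog ligands, had 91.0 ± 65.4 CPM at 14 days and 114 ± 68.1 CPM at 6 days, against 633 ± 492 CPM in control, and was called lower at 6 days too (adjusted p = 0.0362). The 6-day call was lost without control 2 (0.162) or 3 (0.0826), without 6-day library 1, 2, 3 or 5 (0.0642 to 0.0723), with library sex in the fit (0.0531) and without range B (0.0713). Over all tested genes 3.35% were called lower at 14 days against control and 0.773% at 6 days against control. In none of Ptch1, Hhip, Foxe1, Gli1 and Smo did the 14-day libraries have the order 1, 3, 2 of Fcgbp, Gdpd2 and Ankrd35. That order was found in 28.4% of all tested genes, so its lack in these few is given as a count only. Gli1 was lowest in library 1, with 61.6, 116 and 146 CPM in libraries 1 to 3.

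The genes most like each of the 3 were ranked by Pearson's r of log2 levels over the 15 libraries, among the 14840 genes that averaged 1 CPM or more. This r holds the group difference that chose the genes and carries no test. For Fcgbp the closest were Dennd2c (0.948), Tgm4 (0.941), Arhgap27 (0.939), Niban2 (0.938) and Ttc7 (0.929). For Gdpd2 they were Acer1 (0.948), Ankrd35 (0.923), Npl (0.919), Tnfrsf19 (0.918) and Fam83f (0.904). For Ankrd35 they were Gdpd2 (0.923), Anxa7 (0.917), Npl (0.916), Acer1 (0.914) and Cx3cl1 (0.911). Gdpd2 and Ankrd35 thus stood at place 2 and place 1 of each other's lists, Ankrd35 at place 17 and Gdpd2 at place 133 for Fcgbp. The first 5 places depended on the measure. With Spearman's rho, with deviations from the group means or without range B, 0 or 1 of the 5 remained for each gene, and 19 to 57 of the first 100.

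The first 100 places of all 3 genes shared 22 genes. Among them were Krt1, Krt77 and Dsc1 of suprabasal epidermis, Acer1, an alkaline ceramidase of skin, Clca2, Tjp3 of tight junctions, the Wnt ligand gene Wnt3, Tnfrsf19 and the decoy chemokine receptor gene Ackr2. Krt1 had 2779, 36.1 and 660 CPM in 14-day libraries 1 to 3, against 0.996 to 147 CPM in control. Acer1 had 78.1, 3.10 and 19.0 CPM in 14-day libraries 1 to 3, against 0.626 to 6.83 CPM in control. Wnt3 had 114, 1.40 and 28.9 CPM in 14-day libraries 1 to 3, against 0 to 8.59 CPM in control. In library 2 each of these 3 genes was within the control range. The order of libraries 1, 3 and 2 was found in 22 of the 22 genes, beside 28.4% of all tested genes, and the ranking by r used these libraries.

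**Figure D4:**
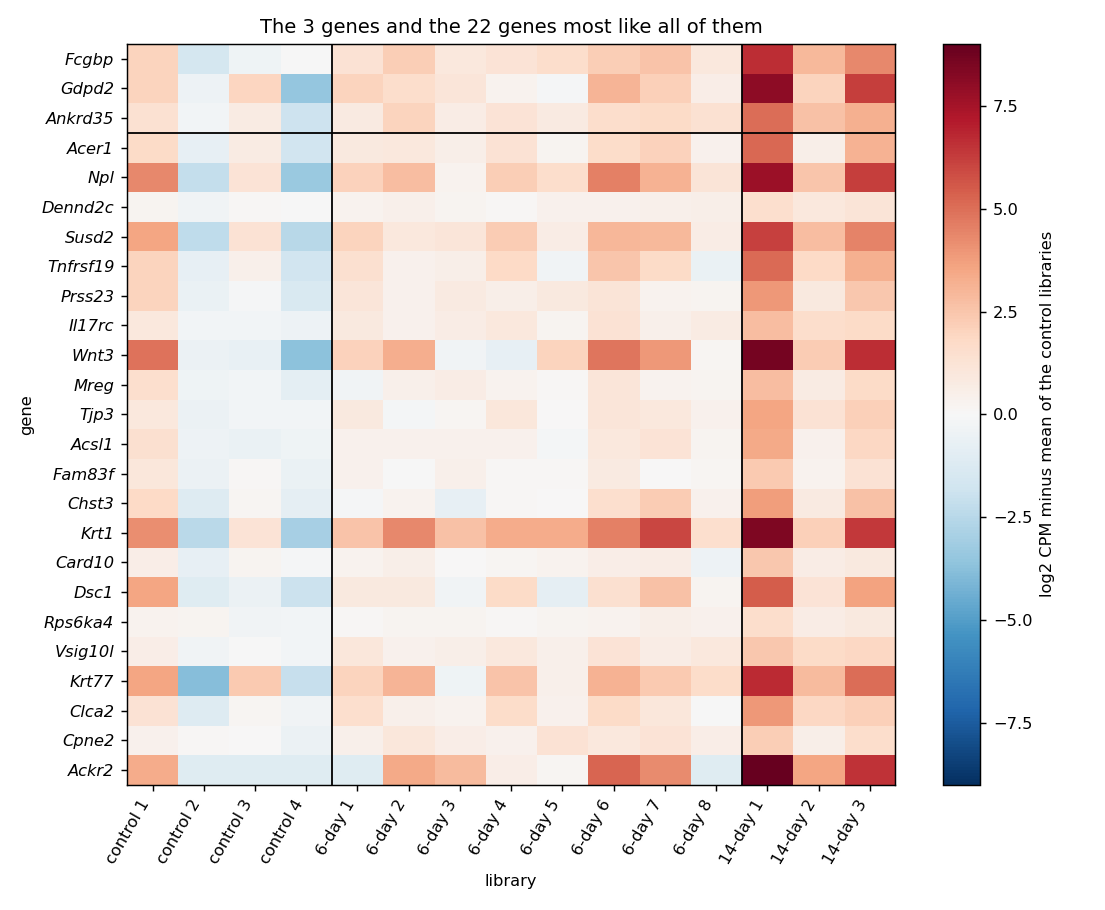
Log2 CPM minus the mean log2 CPM of the control libraries for Fcgbp, Gdpd2 and Ankrd35 (top rows) and the 22 genes in the first 100 places of all 3, in each of 15 libraries. Red is above and blue below the control mean; 14-day library 1 is the reddest column, 14-day library 3 follows, and 14-day library 2 is paler for each of the 22 genes, which were chosen by likeness over these libraries.

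Of the neighbours of the 3 genes on their chromosomes, only Pias3 passed in any comparison. Over all tested genes 1.26% were called at 6 days against control, 6.6% at 14 days against control and 3.89% at 14 against 6 days. The single neighbour is therefore given as a count only. Whether neighbours moved with the 3 genes was not tested. Zfp850 and Psmc4 lie before Fcgbp, and Fbl, a ribosomal RNA methyltransferase gene, lies beyond 9530053A07Rik. None of these 4 passed in any comparison, and Psmc4, a proteasome subunit gene, had 182 ± 47.2 CPM at 14 days against 203 ± 42.3 CPM in control. Kif4, a mitotic kinesin gene that ends 2565 bases before Gdpd2 starts, had 33.3 ± 24.9 CPM at 14 days against 6.46 ± 4.81 CPM at 6 days (log2 2.36, adjusted p = 0.0731) and 21.3 ± 11.8 CPM in control. Pdzd11 before it and Dlg3 after Gdpd2 did not pass, and Gm14902 had no counts. Next to Ankrd35, Pias3, a SUMO ligase gene that starts 5327 bases after Ankrd35 ends, was higher at 14 days than in control (86.0 ± 23.2 against 40.2 ± 8.18 CPM, log2 1.10, adjusted p = 0.0312). That call was lost without 14-day library 1 (0.0761), 14-day library 2 (0.129), control 1 (0.0576) or control 3 (0.0716) and with only the 2 groups compared (0.0621). Pias3 already had 79.0 ± 24.2 CPM at 6 days (log2 0.98 against control, adjusted p = 0.0592, edgeR). Its log2 difference at 14 against 6 days was 0.12 (adjusted p = 0.812, edgeR). Itga10 and Nudt17 did not pass.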

How the data were processed

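The 15 libraries (4 control, 8 at 6 days, 3 at 14 days) held polyA RNA of sorted tumour cells, purified on silica columns per the labels' protocols. Per the file headers, the authors deposited counts of uniquely aligned reads, and RPKM values that also take a size factor. GSNAP and GRCm38 are the aligner and build named in the submitters' processing notes; versions, annotation and strand handling were not given in the sources used here. RPKM was proportional to count within a gene once library factors were removed (deviation at most 9.8e-15) and served only to compare levels between genes.

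Symbols came from a RefSeq table, which lists 31049 of the 36528 Entrez identifiers; the other 5479 held 1.24 to 1.59% of counts. All 105 pairs of libraries differed by more than sampling noise (chi-square over degrees of freedom at least 52.8). edgeR 4.0.16 under R 4.3.3 was run on the deposited counts in 1 fit of all libraries (TMM scaling, filterByExpr, quasi-likelihood F test, 12 residual degrees of freedom, common biological coefficient of variation 0.579), with Benjamini-Hochberg adjustment over 18751 genes and calls at an adjusted p under 0.05. The fit was tested on simulated data. Correlations used log2 CPM with a prior count of 2 and exact permutations. Promoters are RefSeq GRCm38.p6. Intervals cover counting error only, and 0 counts allow up to 3 counts, at most 0.105 CPM in any library.

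The 3 genes, the gene lists and the marker lists were chosen with earlier results of these data known. List genes were named where called, up to 6 a list by adjusted p, and in lists of 6 or fewer tested genes; like genes were the 5 with the highest r for each gene and those in the top 100 of all 3; neighbours were the 2 nearest genes on each side. DESeq2 1.42.0, RLE factors, other filters, 2-group fits, range B or library sex as a covariate, and fits without range B or without each library were the alternatives. A few genes that these rules name are not reported here.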

Additional observations from a re-analysis of the deposited data

Results flagged for a closer look

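Of 12 groups of libraries checked for a value far from the others, 3 gave one. The measure was the gap to the nearest value over the range, in CPM without logs. Its limits, 0.829 for 4 libraries and 0.526 for 8, assume normally distributed values. The groups also share libraries, so 3 of 12 is not set against a chance rate. Control 1 had 159.0 CPM of Fcgbp, and its gap to the nearest control was 0.829 of the range of the 4 controls. The same library had 2206 CPM in the sum of 12 differentiating epidermis markers, with a gap of 0.877 of the control range. At 6 days library 7 had the highest marker sum, 1772 CPM, with a gap of 0.534 of the range of the 8 libraries, and it also had the highest Fcgbp level of its group, 241 CPM. Control 1 also had the highest Gdpd2 and Ankrd35 levels of the controls, 2.55 and 8.75 CPM. What set control 1 and 6-day library 7 apart was not tested.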

How the results depend on the processing

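The fold changes of Fcgbp, Gdpd2 and Ankrd35 kept their direction under every alternative run. In 72 of 72 values from alternatives other than leaving out 1 library, they moved by less than the pooled SD within groups. That limit is wide, since group SDs of log2 CPM were 1.06 to 3.09 for Gdpd2. Without range B libraries the fold at 6 days over control was 1.51 for Fcgbp, 1.14 for Gdpd2 and 1.29 for Ankrd35. With all libraries it was 2.24, 1.48 and 1.90. With 1 library left out, the log2 fold changes for 6 days and 14 days over control and for 14 over 6 days ran from 0.78 to 2.24, 3.23 to 5.96 and 2.06 to 4.18 for Fcgbp, from 0.14 to 1.03, 4.20 to 6.35 and 3.64 to 5.78 for Gdpd2, and from 0.58 to 1.45, 2.55 to 4.17 and 1.63 to 3.08 for Ankrd35. For the range B against range A differences, RLE factors, a prior count of 0.5 and log2 RPKM were the alternatives that kept all 8 libraries. None of the 9 values they gave for the 3 genes passed the threshold. There only all 3 genes at the smallest p could pass after adjustment, and with 1 library left out the exact test cannot pass it.

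Counts of called genes depended more on the setting. Against 236 at 6 days against control, DESeq2 gave 846, library sex as a covariate 152, range B as a covariate 866 and a fit without range B libraries 465. Against 1238 at 14 days against control, DESeq2 gave 2752, only the 2 groups compared 374, range B as a covariate 3196 and no range B libraries 2330. Against 730 at 14 against 6 days, DESeq2 gave 2585, library sex 217, no filter on low counts 460, range B as a covariate 2036 and no range B libraries 1322. With 1 library left out the 3 counts ran from 69 to 308, 376 to 1438 and 3 to 1138, the 3 being without 14-day library 1 and 43 without 14-day library 3. Of 47 calls of list genes over the 3 comparisons, 5 held without each library in turn and 37 were lost without 14-day library 1. The correlations over 6-day libraries and their alternatives were added after the data had been seen. Depth ran over a wide range, so a level of a few counts, such as Gdpd2 in control 4, sets no fold. No paired analysis was possible because the labels give no replicate numbers, and those used here follow accession order.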
